A study of Mus musculus with 8 samples.

Results

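Integrins and the proteins of focal adhesions were followed as transcripts in the mouse melanoma line B16-OVA, which is B16F10 made to express ovalbumin (OVA), a model antigen. Members were the genes whose symbol has the form of an integrin alpha or beta subunit, together with 25 named adaptor, kinase and regulator genes. This gave 53 genes of the 55416 rows with an Ensembl identifier, namely 27 integrin subunits (18 alpha, 9 beta), the 25 adaptors and kinases, and Itgbl1, an integrin-like gene that encodes no subunit and that the name pattern also takes. RNA was sequenced from 8 libraries of B16-OVA cells of wild-type genotype, 4 in each of 2 groups. The Control group consisted of untreated cells. The HMF group consisted of cells kept for 24 h with magnetic rod-shaped micromotors (MagRMs) and then exposed to the high-frequency magnetic field (HMF) of the group's name, and cells were collected 6 h after treatment. Each HMF library received both the micromotors and the field, so the effect of each cannot be told apart. Whether the 4 libraries of a group are separate cultures is not labelled, and p-values therefore reflect a spread between libraries that may be technical.

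Integrins are cell surface receptors made of an alpha and a beta subunit. They bind matrix proteins outside the cell, and the beta tail recruits talin and kindlin, which link the receptor to actin. Vinculin, alpha-actinin, paxillin, zyxin and the complex of ILK, PINCH and parvin build the adhesion around that link, focal adhesion kinase and Src signal from it, and RhoA with its kinases sets the myosin tension that it carries. The study explored the mechanism by which such magnetic mechano-regulation kills tumour cells, and adhesions are sites at which a cell senses and bears force.

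The single genes with the largest differences were Itga2 (chromosome 13, ENSMUSG00000015533), which was 4.20-fold higher in HMF, and Kank4 (chromosome 4, ENSMUSG00000035407), which fell to 0.239 of its Control level. The promoters of these genes are shown as the starts of the members with the largest rise and the largest fall, and that of Vcl, the vinculin gene, as a member that carries the binding element of the actin-responsive factor SRF. Each window runs from 250 bases before to 50 bases after the start of transcription, is read 5′ to 3′ on the strand of the gene and is taken from RefSeq (build GRCm38.p6). Capitals mark motif matches on either strand.
Itga2 (chr13:114932051-114932350, minus strand): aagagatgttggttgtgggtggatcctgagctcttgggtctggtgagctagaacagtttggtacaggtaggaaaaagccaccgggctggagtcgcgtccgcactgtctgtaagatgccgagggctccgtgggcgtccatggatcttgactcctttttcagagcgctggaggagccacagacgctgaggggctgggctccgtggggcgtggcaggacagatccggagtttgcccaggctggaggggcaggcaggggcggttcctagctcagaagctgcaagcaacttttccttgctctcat
Kank4 (chr4:98817488-98817787, minus strand): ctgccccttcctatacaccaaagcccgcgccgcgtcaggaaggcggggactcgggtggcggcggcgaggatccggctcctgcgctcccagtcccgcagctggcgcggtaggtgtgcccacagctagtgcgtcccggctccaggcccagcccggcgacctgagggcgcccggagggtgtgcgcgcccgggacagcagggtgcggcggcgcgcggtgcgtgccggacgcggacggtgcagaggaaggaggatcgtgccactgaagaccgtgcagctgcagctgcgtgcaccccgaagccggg
Vcl (chr14:20929148-20929447, plus strand): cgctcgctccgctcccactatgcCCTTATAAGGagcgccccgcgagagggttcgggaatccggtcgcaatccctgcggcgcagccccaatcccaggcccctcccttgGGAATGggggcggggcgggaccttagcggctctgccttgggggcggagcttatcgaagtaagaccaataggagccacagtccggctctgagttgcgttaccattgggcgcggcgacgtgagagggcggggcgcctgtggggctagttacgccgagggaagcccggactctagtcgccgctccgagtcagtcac

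The search covered the AP-1 site TGANTCA, the TEAD site GGAATG, the core of the interferon-stimulated response element, the NF-kB site and the CArG box, on both strands. The capitals in the Vcl window are a CArG box 227 bases before the start and a TEAD site 143 bases before it, and the Itga2 and Kank4 windows held none of these motifs. RefSeq gave 46 windows for 39 of the 53 members. A CArG box stood in 3 of the 46 windows (Fermt2, Itgb6 and Vcl), and in 1.63% of all 32851 promoter windows of that length. The TEAD site stood in 4 (all windows 14.7%), the AP-1 site in 5 (7.81%), the interferon element in 2 (3.44%) and the NF-kB site in 1 (4.51%). The windows of Itga2, Itga4, Itga5, Kank2, Kank4 and Tns3 held no match. A missing match says only that these letters are not in the window.

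The library totals ran from 13973961 to 19295358 counts. The cells carried melanocyte genes at high level. CPM are read counts scaled to library size by the TMM method. For 10 markers the summed CPM was 17030 to 19130 in Control and 12770 to 15770 in HMF. Of the 10, 6 fell at an adjusted p below 0.05, against 13.0% of all tested genes. The 7 keratinocyte markers and 9 of 11 T and NK cell markers had no count in any library. The T and NK list summed to 1.22 to 2.06 CPM in Control and 2.48 to 4.44 in HMF, and 11 macrophage markers, Adgre1 at 0, summed to 8.32 to 12.8 and 14.9 to 16.1. Fibroblast markers (9, Thy1 at 0) summed to 31.4 to 49.2 in Control and 26.8 to 29.2 in HMF, and endothelial markers (7, Emcn at 0) to 11.95 to 15.4 and 10.2 to 12.6. Few markers of these lists were tested. The 1 tested T and NK marker rose, as did 1 of 2 macrophage markers. Of 6 fibroblast markers 1 rose and 1 fell, and the 1 tested endothelial marker was not called. The part of these differences in the results below was not tested. In bulk RNA, fewer cells with a transcript and less transcript per cell cannot be told apart. Within the groups, HMF 4 stood apart, with 30.1 and 32.7 as chi-square per degree of freedom against HMF 3 and HMF 1, and Control 1 and 2 stood apart from Control 3 and 4.

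Of the 53 members 42 passed the count filter and were tested, 18 integrin subunits and 24 adaptors and kinases. Of these, 10 changed, 3 upward and 7 downward, at an adjusted p below 0.05 (edgeR quasi-likelihood test, Benjamini-Hochberg over 15082 genes). Across all tested genes 26.7% changed (13.7% rose and 13.0% fell), so 10 of 42 members, 23.8%, is close to the background. The split over all genes depended on the fit. It was 2073 rises and 1957 falls here, and 1625 rises and 2311 falls by limma on log2(FPKM + 1). FPKM are the deposited values scaled to gene length, taken as all annotated exonic bases of the gene, and to library size. These fits differ in tool, scaling and unit, and the part of each in the split over all genes was not tested. Fits that changed the scaling or the tool alone were also run. With library sizes alone in edgeR, Itgb1 was -0.039 and Rhoa -0.062, and on log2(FPKM + 1) they were -0.039 and -0.06. By limma-voom, which kept the TMM scaling, they were 0.006 and -0.018, against 0.005 and -0.017 in the main fit. Integrin subunits had 2 rises and 1 fall among 18 tested, 16.7%, with a median log2 fold change of 0.012. Adaptors and kinases had 1 rise and 6 falls among 24 tested, 29.2%, with a median of 0.00. The median of all tested genes was -0.016, and a difference between the classes was not tested. The groups did not overlap for 10 members, with 3 higher and 7 lower in HMF, against 29.1% of all tested genes. These were the changed members other than Rock1, and Ptk2, which did not pass the test. Across 19 alternative settings 8 to 13 members were called. Itga2, Itga4, Itga5, Kank2, Kank4, Ptk2b, Tln2 and Tns3 were called in all 19, Parva in 10 and Rock1 in 6, and Itga1, Itga2b, Itga6, Itga9, Actn1 and Tns1 were called in some of them.

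**Figure D1:**
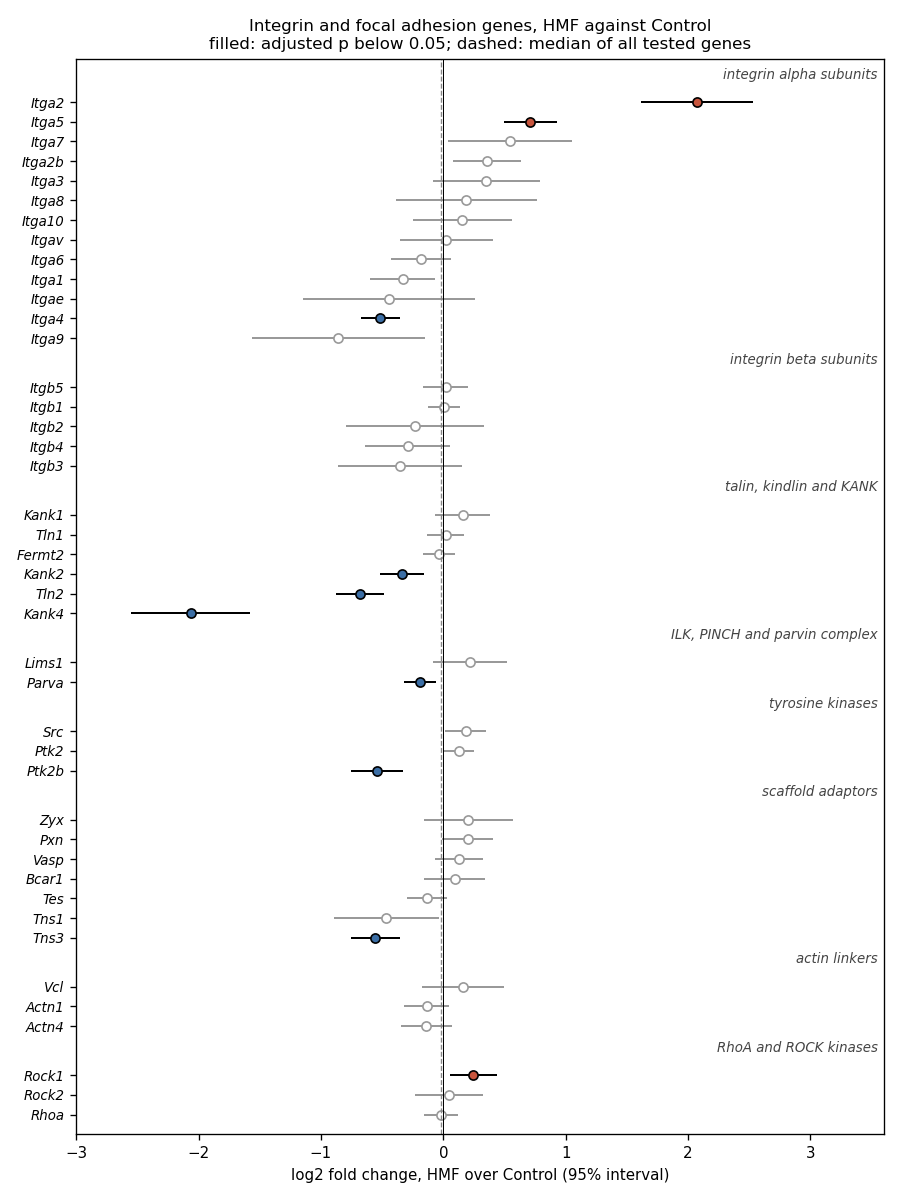
Log2 fold change of HMF over Control for the 42 tested members, grouped by role, with 95% intervals from the standard error of the edgeR fit; filled points changed at an adjusted p below 0.05. Itga2 at 2.07 and Kank4 at -2.07 lie farthest from the dashed median of all genes, and intervals of the beta subunits all reach 0.

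Levels of different genes were compared per length with the deposited FPKM values. That length covers all annotated exons of a gene, not the transcripts expressed here, so the order of genes depends on the annotation. Itgb1, the beta subunit shared by most integrins, had the highest level of the 27 subunits at 206 ± 7.29 FPKM in Control and 201 ± 5.33 in HMF (SD, n = 4). It made up 87.9% ± 0.722 of the summed beta subunit FPKM in Control and 88.5% ± 0.716 in HMF. Itgav, the alpha subunit of the vitronectin receptors, followed at 43.6 ± 8.30 and 43.1 ± 9.99 FPKM, and Itgb5, a partner of it, at 19.2 ± 1.59 and 18.9 ± 1.42. The next levels lay close together. In Control the laminin receptor subunit Itga6 had 10.9 ± 1.33 FPKM, Itga4 9.05 ± 0.441 and Itga5 7.88 ± 1.09. The Control libraries of Itga4 and Itga5 overlapped, while each Itga6 value was above each Itga4 value. In HMF Itga5 came first of these 3 at 12.5 ± 0.686 FPKM, before Itga6 at 9.32 ± 1.18 and Itga4 at 6.14 ± 0.436, with no overlap between neighbours. Itgb3, the beta subunit of the other vitronectin receptor, had 5.95 ± 1.38 and 4.55 ± 1.41 FPKM, and Itga9 had 5.55 ± 1.62 and 2.999 ± 1.29. The other tested subunits had mean levels of 0.296 to 1.97 FPKM over the 8 libraries.

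**Figure D2:**
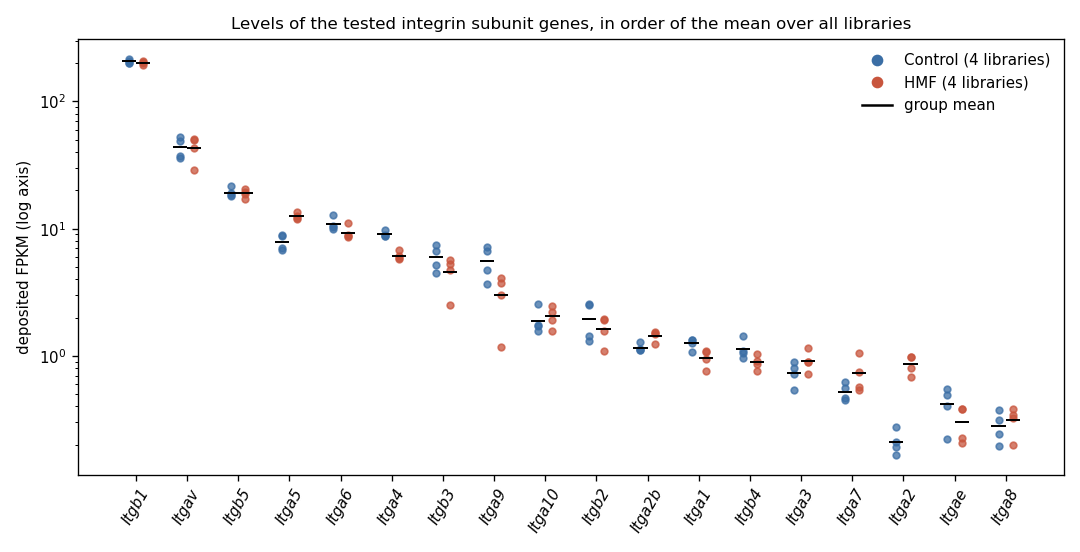
Deposited FPKM on a log axis for the 18 tested integrin subunit genes, 1 point per library (Control left, HMF right, 4 each), with group means as bars. Itgb1 lies at 193.9 FPKM or higher in every library, and the order of Itga5 and Itga4 differs between the groups.

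Several integrin genes known from leukocytes were near or at 0. Itgam and Itgb2l had no count in any library, Itgax had 1 count in HMF 1, Itgad 1 count in Control 4, and Itgal 0 to 2 counts. In the GENCODE M21 annotation 68.7% of the exonic bases of Itgam are shared with Gm49368 on the same strand, which had no count either. Itgb6, an epithelial subunit, had no count. Itgb7 had 5 to 14 counts, Itgb8 2 to 19 and Itga11 2 to 9, and Itgbl1 had 1 count in each of Control 1 and Control 4. None of these was tested. Itgb2, the common leukocyte beta subunit, was tested at 5.84 ± 1.96 CPM in Control and 5.03 ± 1.19 in HMF (SD, n = 4; log2 fold change -0.23, adjusted p = 0.542 by edgeR), and Itgae, known from lymphocytes, was tested at 14 to 44 counts per library.

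Among the 13 tested alpha subunits, 2 genes rose and 1 fell (23.1% changed, against 26.7% of all tested genes). Itga2 encodes the alpha subunit of a collagen receptor. It had 33, 21, 19 and 24 counts in Control 1 to 4 and 72, 105, 81 and 135 in HMF 1 to 4, or 1.95, 1.49, 1.16 and 1.35 CPM against 4.935, 7.18, 5.74 and 7.22 CPM. Every HMF library was above every Control library. The mean went from 1.49 ± 0.338 to 6.27 ± 1.125 CPM (SD, n = 4), which is 2.07 ± 0.20 as a log2 fold change (SE, adjusted p = 2.8e-05 by edgeR). The level was low, and on the log2(FPKM + 1) scale the change was 0.62. Itga5 (chromosome 15, ENSMUSG00000000555) encodes the alpha subunit of the classical fibronectin receptor, formed with Itgb1. It had 33.4, 34.5, 42.6 and 42.8 CPM in Control 1 to 4 and 59.1, 61.5, 62.3 and 68.4 CPM in HMF 1 to 4. The HMF libraries lay close together and above the Control libraries. The rise was 0.71 ± 0.09 on the log2 scale (SE, adjusted p = 0.000242 by edgeR, n = 4 per group), from 38.3 ± 5.05 to 62.8 ± 3.96 CPM.

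Itga4 (chromosome 2, ENSMUSG00000027009) encodes the alpha subunit of a receptor for VCAM-1 and for another site of fibronectin, also formed with Itgb1. It had 122, 135, 119.7 and 123 CPM in Control 1 to 4 and 83.9, 82.7, 85.1 and 97.7 CPM in HMF 1 to 4. All HMF libraries were lower, with HMF 4 nearest to Control. The mean fell from 125 ± 6.74 to 87.3 ± 6.955 CPM (SD, n = 4), which is -0.51 ± 0.07 as a log2 fold change (SE, adjusted p = 0.000285 by edgeR). In the annotation 8.04% of the exonic bases of Itga4 are shared with Cerkl on the opposite strand, a gene with 21 to 65 counts per library. The ratio of Itga5 to Itga4 FPKM was 0.775, 0.726, 1.01 and 0.988 in Control 1 to 4 and 1.996, 2.11, 2.07 and 1.985 in HMF 1 to 4. This ratio was formed after the values of both genes were seen and is given without a test. Vcam1, which encodes the ligand of the Itga4 receptor, had 1, 4, 2 and 1 counts in Control 1 to 4 and 16, 29, 11 and 79 in HMF 1 to 4. It rose by 3.99 ± 0.71 on the log2 scale (SE, adjusted p = 0.00174 by edgeR, n = 4 per group), with the highest count in HMF 4. Its log2 fold change was 3.30 without HMF 4 and 4.604 without Control 2, and on log2(FPKM + 1) the gene did not pass (0.26, adjusted p = 0.0519 by limma).

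The most abundant subunits did not pass the test. Itgb1 had 869.7, 816, 836 and 802 CPM in Control 1 to 4 and 852, 834.5, 832 and 816.5 CPM in HMF 1 to 4. The groups overlapped, and the log2 fold change of 0.00 had a 95% interval of -0.12 to 0.13. Itgav had 383, 396, 547 and 521.5 CPM in Control and 543, 469, 544.5 and 322 CPM in HMF. Its values were split within both groups, with Control 1, Control 2 and HMF 4 low, and the interval of its log2 fold change ran from -0.35 to 0.395. Itgb3 had 26.1, 30.3, 38.3 and 43.6 CPM in Control and 31.5, 28.3, 33.8 and 15.4 CPM in HMF, with HMF 4 lowest (log2 fold change -0.35, adjusted p = 0.287 by edgeR). Itgb5 (0.02) and Itgb4 (-0.29) did not pass either, so none of the 5 tested beta subunits was called, against 26.7% of all tested genes. The 95% intervals of the log2 fold change were -0.85 to 0.15 for Itgb3, -0.79 to 0.32 for Itgb2 and -0.63 to 0.05 for Itgb4.

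Several alpha subunits did not pass but did so under some of the alternatives. Itga9, whose receptor binds tenascin and osteopontin among others, had 28.1, 36.1, 50.2 and 53.9 CPM in Control and 31.7, 23.7, 28.8 and 9.36 CPM in HMF. The groups overlapped at Control 1 and HMF 1, and HMF 4 was lowest. Its log2 fold change was -0.86 ± 0.32 (SE, adjusted p = 0.0682 by edgeR). It passed without HMF 4 (-0.59, adjusted p = 0.0461), without HMF 1 (-1.045, adjusted p = 0.0486) and without Control 1 (-1.01, adjusted p = 0.0464), and with all 8 libraries when no count filter was used (-0.865, adjusted p = 0.0101). Itga1, another collagen receptor subunit, was at -0.33 on the log2 scale (adjusted p = 0.0573 by edgeR), and passed without Control 1 (-0.39, adjusted p = 0.0373) and without HMF 1 (-0.39, adjusted p = 0.0443). With all 8 libraries it passed by DESeq2 (adjusted p = 0.0417) and with library sizes alone (adjusted p = 0.0397). Itga2b, known from the platelet fibrinogen receptor, had 0.36 (adjusted p = 0.0507 by edgeR), and passed without HMF 1 (0.43, adjusted p = 0.027) and without Control 2 (0.415, adjusted p = 0.0405). With all 8 libraries it passed with DESeq2's size factors in edgeR (adjusted p = 0.0487), with the filter of 1 CPM in 4 libraries (adjusted p = 0.0475) and by limma-voom (adjusted p = 0.0484). Itga6 had -0.185 (adjusted p = 0.24), and of the 19 alternatives passed only without HMF 4 (-0.29, adjusted p = 0.0332). The other tested alpha subunits (Itga3, Itga7, Itga8, Itga10 and Itgae) had log2 fold changes of -0.445 to 0.54 and did not pass.

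**Figure D3:**
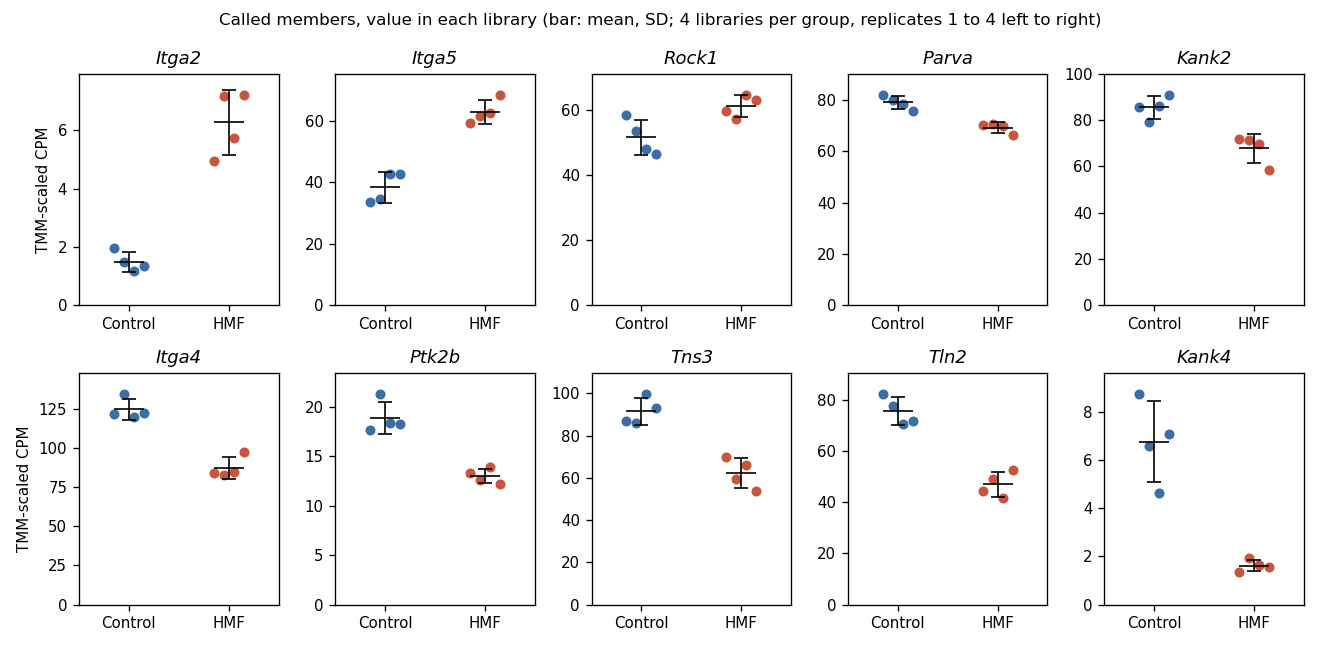
TMM-scaled CPM in each library for the 10 changed members (4 Control and 4 HMF libraries, replicates 1 to 4 from left to right, bar and whiskers for mean and SD). The groups are separated in 9 of the panels and overlap for Rock1, where Control 1 at 58.4 CPM lies above HMF 2 at 57.3 CPM.

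Talins, kindlins and KANK proteins sit at or near the integrin tail, and 3 of the 6 member genes of this kind fell. Of all tested genes 13.0% fell, and a difference of these few genes from that share was not tested. Kank4 encodes a member of the KANK family, whose proteins bind talin at the rim of adhesions. It had 148, 93, 76 and 126 counts in Control 1 to 4 and 20, 28, 23 and 29 in HMF 1 to 4, or 8.755, 6.61, 4.64 and 7.09 CPM against 1.37, 1.92, 1.63 and 1.55 CPM. The lowest Control library was above the highest HMF library. The mean fell from 6.77 ± 1.69 to 1.62 ± 0.226 CPM (SD, n = 4), which is -2.07 ± 0.22 as a log2 fold change (SE, adjusted p = 4.55e-05 by edgeR). On the log2(FPKM + 1) scale the change was -0.86. Kank2 (chromosome 9, ENSMUSG00000032194) had 85.6, 79.0, 86.1 and 90.9 CPM in Control 1 to 4 and 71.7, 71.5, 69.4 and 58.2 CPM in HMF 1 to 4. It fell by 0.34 ± 0.08 on the log2 scale (SE, adjusted p = 0.00866 by edgeR, n = 4 per group), and the groups did not overlap. Kank1 did not pass at 64.8 ± 6.01 and 72.3 ± 9.45 CPM (SD, n = 4; log2 fold change 0.16, adjusted p = 0.268 by edgeR). Kank4 was 4.97% ± 1.08 of the summed FPKM of these 3 KANK genes in Control and 1.35% ± 0.164 in HMF, a share that, like those of Tln2 and Ptk2b below, was formed after the values were seen.

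Tln2 (chromosome 9, ENSMUSG00000052698) encodes talin 2, the less widely expressed talin. It had 82.2, 77.6, 70.5 and 71.6 CPM in Control 1 to 4 and 44.5, 49.1, 41.5 and 52.6 CPM in HMF 1 to 4. The groups were far apart relative to their spread, at 75.5 ± 5.45 and 46.9 ± 4.91 CPM (SD, n = 4), which is -0.68 ± 0.085 as a log2 fold change (SE, adjusted p = 0.000159 by edgeR). Tln1, the main talin gene, had 493, 447, 473 and 477 CPM in Control and 469.9, 488.5, 441 and 516 CPM in HMF. Its groups overlapped, and the interval of its log2 fold change was -0.12 to 0.16. Per length, Tln2 made up 7.86% ± 0.547 of the talin FPKM in Control and 4.97% ± 0.193 in HMF. Fermt2, which encodes kindlin 2, had 166 ± 3.84 and 162 ± 8.30 CPM (SD, n = 4; log2 fold change -0.04, interval -0.16 to 0.09).

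In the complex of ILK, PINCH and parvin, Parva, the alpha-parvin gene (chromosome 7, ENSMUSG00000030770), had 82.2, 80.1, 78.4 and 75.8 CPM in Control 1 to 4 and 70.45, 70.7, 69.7 and 66.4 CPM in HMF 1 to 4. The groups did not overlap, and the difference was small, -0.19 ± 0.055 on the log2 scale (SE, adjusted p = 0.0248 by edgeR, n = 4 per group). The call was lost without Control 1, 2 or 3 and without HMF 2, 3 or 4, with adjusted p of 0.0354 to 0.0649 over the 8 fits that each leave out a library. Lims1, which encodes PINCH-1, had 72.8 ± 10.95 and 84.6 ± 15.7 CPM (SD, n = 4; log2 fold change 0.22, adjusted p = 0.261 by edgeR). Ilk, the gene of integrin-linked kinase, had 9, 2, 1 and 1 counts in Control 1 to 4 and 0, 5, 1 and 10 in HMF 1 to 4, and was not tested. In the GENCODE M21 annotation 89.7% of its exonic bases are shared with Taf10 on the opposite strand, which had 760 to 1045 counts per library. The strand setting of the counting is not given in the sources used here, so the counts of Ilk say nothing of its level. The same annotation shares over 5% of exonic bases with another gene for 11 of the 53 members, among them Vcl with 25.5%.

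Of the tyrosine kinases, Ptk2b fell while Ptk2 and Src did not pass. Ptk2b (chromosome 14, ENSMUSG00000059456) encodes PYK2, a calcium-responsive relative of focal adhesion kinase. It had 17.7, 21.3, 18.4 and 18.3 CPM in Control 1 to 4 and 13.3, 12.6, 13.9 and 12.25 CPM in HMF 1 to 4. All HMF libraries were lower, and the log2 fold change was -0.54 ± 0.09 (SE, adjusted p = 0.00147 by edgeR, n = 4 per group). Ptk2, which encodes focal adhesion kinase itself, had 131, 144, 136 and 134 CPM in Control and 151.5, 145.5, 151 and 146 CPM in HMF. Its groups did not overlap, but the log2 fold change of 0.13 did not pass (adjusted p = 0.1055 by edgeR). Src had 213, 198, 239 and 233 CPM in Control and 259.5, 259.9, 245.5 and 237 CPM in HMF, with an overlap at HMF 4 (log2 fold change 0.18, adjusted p = 0.0818 by edgeR). Ptk2b was 18.1% ± 0.683 of the summed FPKM of the focal adhesion kinase family pair in Control and 12.3% ± 0.429 in HMF. In both the talin pair and the kinase pair it was the gene with the lower FPKM that fell. Among Kank1, Kank2 and Kank4 both the lowest, Kank4, and the highest in Control, Kank2, fell. Kank3, a KANK gene outside the members, had 6.79 ± 0.781 CPM in Control and 5.90 ± 0.694 in HMF (SD, n = 4). It was not called (log2 fold change -0.20, adjusted p = 0.305 by edgeR). Of the tensin genes Tns1 and Tns3, given below, only the one with the higher FPKM, Tns3, was called (7.86 against 3.235 in Control). Tns2, a tensin gene outside the members, had 138 ± 6.14 CPM in Control and 123 ± 7.17 in HMF (SD, n = 4). All its HMF libraries were lower, but it was not called (log2 fold change -0.17, adjusted p = 0.0637 by edgeR). These patterns were seen after the values and were not tested.

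Of 7 scaffold adaptors, 1 changed (14.3%, against 26.7% of all tested genes). Tns3 (chromosome 11, ENSMUSG00000020422) encodes tensin 3, a protein of fibrillar adhesions. It had 86.9, 86.0, 99.7 and 93.1 CPM in Control 1 to 4 and 69.6, 59.6, 66.0 and 53.7 CPM in HMF 1 to 4. The groups did not overlap, and the log2 fold change was -0.56 ± 0.09 (SE, adjusted p = 0.000777 by edgeR, n = 4 per group). Its relative Tns1 had 40.1, 45.3, 61.1 and 63.4 CPM in Control and 49.6, 34.7, 41.3 and 26.9 CPM in HMF. The groups overlapped, and the log2 fold change of -0.465 did not pass (adjusted p = 0.096 by edgeR); it passed without HMF 1 (-0.62, adjusted p = 0.0359) and with no count filter (-0.47, adjusted p = 0.0322). Pxn, the paxillin gene, had 95.4, 96.3, 115 and 120.1 CPM in Control and 128, 130.0, 124 and 109 CPM in HMF. HMF 4 lay among the Control values, and the log2 fold change of 0.198 did not pass (adjusted p = 0.135 by edgeR). Zyx, the zyxin gene, had 180.4, 143, 135 and 139 CPM in Control and 143, 174, 135 and 235 CPM in HMF, highest in HMF 4 and Control 1 (log2 fold change 0.20, adjusted p = 0.394 by edgeR). Bcar1, which encodes the stretch-responsive substrate p130Cas, Tes and Vasp had log2 fold changes of 0.09, -0.135 and 0.13.

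None of the actin linkers passed the test. Vcl, whose promoter with the CArG box is given above, had 86.7, 57.3, 71.8 and 65.1 CPM in Control 1 to 4 and 68.3, 80.0, 66.05 and 99.9 CPM in HMF 1 to 4. The groups overlapped, with HMF 4 highest in HMF and Control 1 highest in Control (log2 fold change 0.16, interval -0.16 to 0.49). Actn1 and Actn4, the non-muscle alpha-actinin genes, had log2 fold changes of -0.14 each. Actn1 passed without HMF 4 (-0.215, adjusted p = 0.0298 by edgeR).

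Of the 3 genes of RhoA and its kinases, 1 changed (33.3%, against 26.7% of all tested genes). Rock1, which encodes a kinase that activates myosin, had 58.4, 53.4, 48.0 and 46.3 CPM in Control 1 to 4 and 59.6, 57.3, 64.6 and 62.95 CPM in HMF 1 to 4. The groups overlapped at Control 1 and HMF 2. The rise of 0.25 ± 0.08 on the log2 scale was at the threshold (SE, adjusted p = 0.0455 by edgeR, n = 4 per group). Of the 8 fits that leave out a library, it passed only without Control 1 (adjusted p = 0.0139) and missed in the others, which leave out Control 2, 3 or 4 or any HMF library, with adjusted p up to 0.13. It was also lost with library sizes alone as the scaling. Rock2 had 174 ± 27.8 and 179.9 ± 25.4 CPM (SD, n = 4; log2 fold change 0.05, adjusted p = 0.799 by edgeR). Rhoa, the GTPase that activates both kinases, had 279.7, 257.5, 265 and 253 CPM in Control and 278, 253, 258 and 254 CPM in HMF, with overlapping groups and an interval of -0.15 to 0.11.

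The members also varied within groups. HMF 4 had the highest HMF value for 17 of the 42 tested members (40.5%) and the lowest for 15 (35.7%), against 33.9% and 32.9% of all tested genes. Control 1 had the highest Control value for 18 members (42.9%), against 29.7% of all tested genes. Itgav, Itga9, Itgb3, Itgb2 and Tns1 were higher in Control 3 and 4 than in Control 1 and 2 and lowest of all HMF libraries in HMF 4. For Zyx, Vcl, Lims1, Kank1 and Rock2, HMF 4 was instead the highest of the HMF libraries. The summed CPM of the 18 alpha subunits was 734, 755, 902 and 884 in Control 1 to 4 and 857, 777, 859 and 662 in HMF 1 to 4. That of the 9 beta subunits was closer, at 921 to 985 in Control and 913 to 958 in HMF.

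**Figure D4:**
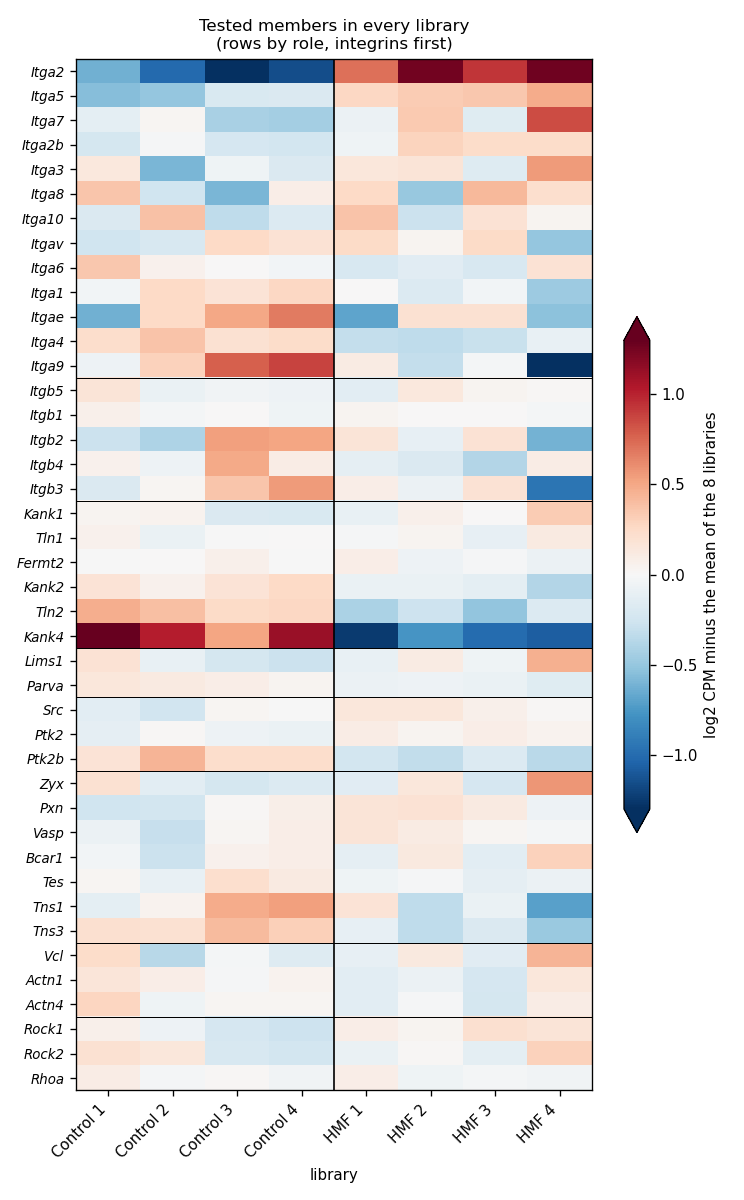
Log2 CPM of each tested member minus its mean over the 8 libraries (columns: Control 1 to 4, HMF 1 to 4; rows by role, colour scale cut off at 1.3 on either side). Itga2 and Kank4 differ between the groups in all libraries, while Itgav, Itga9, Itgb3 and Tns1 are lower in HMF 4 than in HMF 1 to 3.

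Further genes of the pathway were counted in 7 lists, and each gene named from them here passed the edgeR test. Kank3 and Tns2, also from these lists, were given above and did not pass. Their shares stand beside the 26.7% of all tested genes that changed, 13.7% upward and 13.0% downward. Of 16 regulators of integrin activity and trafficking 13 were tested, and 4 rose and none fell (30.8% changed), with a median log2 fold change of 0.14. This share is close to that of all genes. They include Rap1b, a GTPase that promotes talin recruitment (0.44 ± 0.06, SE, adjusted p = 0.000401), Rab21, which carries integrins through endosomes (0.47 ± 0.05), and Dok1, which competes with talin for the beta tail (0.41 ± 0.10). Of 36 further adaptors 31 were tested, with 1 rise and 7 falls (25.8%; median -0.05). Enah fell by 0.51 ± 0.08 on the log2 scale and Evl by 0.47 ± 0.08, both being genes of the actin-elongating Ena/VASP family. Of 20 further kinases and phosphatases 19 were tested, with 2 rises and 4 falls (31.6%; median -0.10). Abl1 fell by 0.575 ± 0.06 on the log2 scale, while its relative Abl2 rose by 0.465 ± 0.075, and Ptpn12, the phosphatase PTP-PEST that acts on p130Cas, rose by 0.35 ± 0.09 (adjusted p = 0.0151).

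Of 30 RhoA regulators and actomyosin genes 28 were tested, with 4 rises and 8 falls (42.9% changed, against 26.7% of all tested genes; median -0.04). Rhoc, a close relative of Rhoa, rose from 225 ± 17.7 to 362 ± 22.4 CPM (SD, n = 4; log2 fold change 0.69 ± 0.07, adjusted p = 4.92e-05 by edgeR). Racgap1 and Ect2, which regulate RhoA in cytokinesis, fell by 1.57 ± 0.17 and 1.29 ± 0.16 on the log2 scale. Of 30 integrin ligands 22 were tested, with 7 rises and 2 falls (40.9%; median 0.05). Besides Vcam1, Fbn1, which encodes the matrix protein fibrillin 1, rose from 8 counts over the 4 Control libraries to 131 over the 4 HMF libraries, with 5 of the 8 in Control 4 and 63 of the 131 in HMF 4. Its log2 fold change was 3.98 ± 0.52, and 4.85 without Control 4 and 3.595 without HMF 4. Tgfb1, whose latent form binds integrins, rose by 0.96 ± 0.17. Of 16 other adhesion receptors all were tested, with 6 rises and 1 fall (43.8%; median 0.13). The proteoglycan gene Sdc4, which encodes syndecan 4, a partner of the fibronectin receptor in focal adhesions, rose by 0.75 ± 0.10, and the hyaluronan receptor gene Cd44 by 0.29 ± 0.06, while Sdc1 fell by 0.40 ± 0.08 on the log2 scale. Of 16 genes of adhesion turnover, all tested, 3 rose and 3 fell (37.5%; median 0.13). The calpain gene Capn2, whose product cuts talin, fell by 0.31 ± 0.06 and the inhibitor gene Timp2 by 0.30 ± 0.06 on the log2 scale, while the sheddase gene Adam17 rose by 0.29 ± 0.05.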

How the data were processed

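The deposited table holds, per the file headers, raw read counts per gene and FPKM values made by the authors for 8 libraries. Trimmomatic, HISAT2 2.0.5, HTSeq, DESeq2 and mm10 are listed per the submitters' processing notes; the sources used here give neither their roles nor the annotation or strandedness of counting. Per the labels' protocols, polyadenylated RNA was captured.

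Groups were read from the titles, since the treatment label reads alike for all 8 libraries. All genes were fitted together with edgeR 4.0.16 (R 4.3.3; TMM, filterByExpr, quasi-likelihood test of HMF against Control, no covariate), with Benjamini-Hochberg adjustment over 15082 genes, and limma 3.58.1 and DESeq2 1.42.0 served as alternatives. Standard errors divide the size of the log2 fold change by the root of the F statistic. Members and lists were chosen with earlier results of these data known. Values in every library are given for changed members and for a preset group, and companion lists name up to 3 changed genes each (those with the smallest adjusted p; 1 is not reported here). Simulated counts for this comparison (15082 genes) gave recovery of 62.7% at 1.5-fold and 91.0% at 2-fold, with 8 false among 173 calls. Only 67 genes were changed at 1.5-fold, 67 at 2-fold and 66 at 4-fold, far fewer than were called in the data. The simulated libraries shared a mean profile, without the differences seen within the groups, so these rates need not hold for the data. No library pair differed by as little as sampling noise (chi-square over its degrees of freedom at least 2.2). Exon sharing was computed from GENCODE M21; figures used matplotlib 3.10.9.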

Additional observations from a re-analysis of the deposited data

Results flagged for a closer look

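Dixon's test at its 95% critical value looked for a single library far from the other 3 of its group, for each of the 42 tested members in Control and in HMF. It marked 4 of the 84 groups, and chance marks about 1 in 20. Itga4 was at 97.7 CPM in HMF 4 against 82.7 to 85.1 in the other HMF libraries, and Itga6 at 104.6 CPM in HMF 4 against 79.7 to 82.95. Itga2b was at 6.96 CPM in Control 2 against 5.97 to 6.04 in the other Control libraries. Fermt2 was at 172 CPM in Control 3 against 163.9 to 164.9.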

How the results depend on the processing

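The alternatives were 3 other scalings, 2 other count filters, a block for the replicate number, the fits without 1 library, the tools DESeq2 and limma-voom, limma on FPKM (log2, pseudocount 1 or 0.1), and an adjusted p below 0.01. At that threshold 2288 genes changed in place of 4030. Leaving out a library gave 3 to 6 changed integrin subunits (5 without Control 1, 6 without HMF 1 and 5 without HMF 4, against 3), 5 to 7 adaptors and kinases, and 3140 to 3804 genes in all. Deviations of same-numbered libraries correlated at -0.265, -0.0793, 0.225 and -0.319. These values gave no common sign of a pairing by the numbers in the titles, but they cannot exclude one. With the replicate block 2785 genes changed, 3 of them integrin subunits and 5 adaptors or kinases, and of the genes named as changed Parva, Rock1 and Ptpn12 were lost (adjusted p = 0.0838, 0.114 and 0.0705 by edgeR). Genes near 0 changed sign within their intervals. With library sizes alone Tln1 was -0.027, Itgav -0.020 and Itgb1 -0.039, and on log2(FPKM + 1) they were -0.027, -0.032 and -0.039, with a pseudocount of 0.1 -0.027, -0.033 and -0.039. Itgb1 was -0.007 with upper quartile scaling. Leaving out a library gave -0.049 to 0.015 for Rhoa, -0.018 to 0.061 for Tln1, -0.053 to 0.168 for Itgav and -0.013 to 0.031 for Itgb1. The 11 members under the count filter have no test at this depth.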
